A study of Homo sapiens with 24 samples.

Results

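The data described here are the 6 libraries of the OE33 Cas9 control line, 3 treated with the MPS1 inhibitor (MPS1i) reversine and 3 with the solvent DMSO, out of 24 libraries in the series. The members were taken from the sample labels, which give line, genotype, treatment and batch, and the response was followed over every gene tested. OE33 is an established esophageal adenocarcinoma cell line, and the Cas9 control cells carry the nuclease with cGAS left wild type. Cells received 500 nM reversine or DMSO for 48 h, and poly(A)-selected RNA was sequenced as 1 DMSO and 1 MPS1i library in each of batches 1, 2 and 3. The other libraries, used only for comparison, were OE33 cGAS KO cells and SK-GT-4 cells (a second esophageal adenocarcinoma line) of both genotypes, with the same 2 treatments and 3 libraries per group. The study describes the Cas9 control and cGAS KO cells as clones and its replicates as biological, so the p-values measure the spread between replicates of these clones and not between clones.

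MPS1, encoded by TTK, is the kinase that starts the spindle assembly checkpoint, which holds cells in mitosis until every chromosome is attached to the spindle. Cells in which MPS1 is blocked leave mitosis early, with missegregated chromosomes that can end up in micronuclei. Micronuclei can expose DNA to cGAS, a sensor that makes the messenger cGAMP and thereby activates STING, interferon and NF-kappaB signaling. Chromosome gains and losses are also known to slow proliferation and to place cells under protein, metabolic and oxidative stress.

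The libraries held 15561268 to 22162553 counts in all. The share of counts from the mitochondrial genome was 1.34% to 2.31% in batches 1 and 2, and it was 6.58% (DMSO) and 8.94% (MPS1i) in batch 3; it was higher in the MPS1i library of each batch. Libraries of the same batch resembled each other, and the first principal component (37.5% of the variance) ordered the batches, not the treatments. The labelled cell type was checked against marker genes: the 11 columnar epithelial markers summed to 21925 to 24330 CPM (read counts scaled to the size of the library) with DMSO and to 19686 to 21765 CPM with MPS1i, led by KRT19 and KRT8, with only TFF3 at 0. The 10 fibroblast markers summed to 1.00 to 2.14 CPM and 1.48 to 2.00 CPM (DCN and DPT at 0), the 12 leukocyte markers to 2.55 to 5.18 CPM and 3.28 to 6.88 CPM (PTPRC, CD3D, CD3E and MS4A1 among those at 0), and the 8 endothelial markers to 0.050 to 0.475 CPM and 0.316 to 0.386 CPM (KDR, FLT1 and EMCN at 0). CGAS stood at 34.5, 29.5 and 30.2 CPM with DMSO and at 40.5, 28.9 and 28.4 CPM with MPS1i, and the groups overlapped (log2 fold change 0.04 ± 0.10 (SE), adjusted p = 0.88).

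The genes that rose after MPS1i included CYP1A1 and CYP1B1 among aryl hydrocarbon receptor targets, 5 of 25 measured NRF2 targets, 5 of 31 ATF4 targets, 5 of 28 keratins, 2 of 6 CXCR1 and CXCR2 ligands and 9 of 95 interferon-alpha response genes. Those that fell included 16 of 51 genes of G2/M and mitosis, such as PLK1, and 4 of 47 DNA replication genes, such as MCM7. CDC20 was 1 of 5 falls among 26 spindle checkpoint and kinetochore genes. Of 17771 genes tested, 197 rose (1.11%) and 183 fell (1.03%) at an adjusted p of 0.01 or less in a quasi-likelihood fit with batch as a block. Among called genes the rises were the larger: their median log2 fold change was 0.63, against -0.44 for the falls, and 36 rises but only 4 falls reached 2-fold. The called rises had a median level of 24.8 CPM and the called falls 75.5 CPM, and the part of level in this difference was not tested. Nearly all calls had the same direction in each batch (196 of 197 rises and 182 of 183 falls). The groups did not overlap for 79 of the 197 rises and 111 of the 183 falls. Of all 17771 genes, 993 lay higher and 930 lower without overlap. Batch 1 showed the smallest response, with a median of 0.44 for the genes that rose and -0.34 for those that fell, against 0.77 and -0.45 in batch 2 and 0.69 and -0.56 in batch 3.

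**Figure D1:**
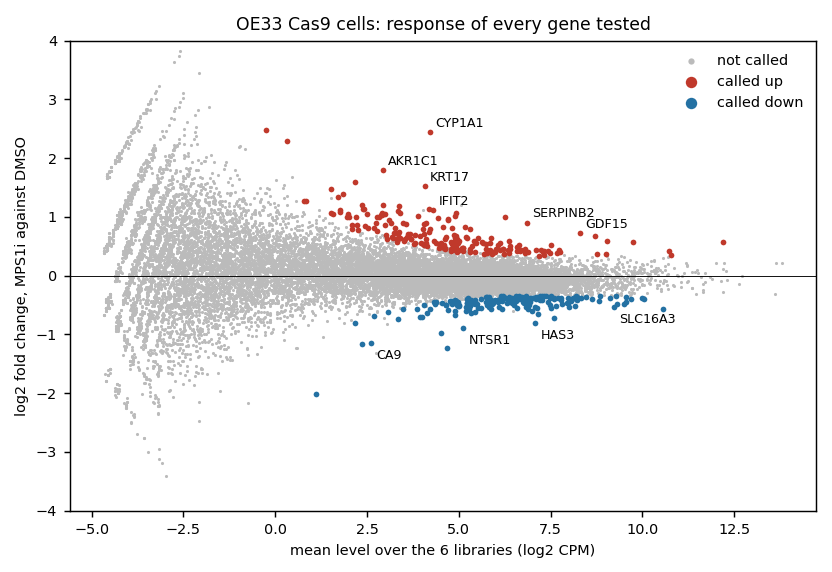
Log2 fold change (MPS1i against DMSO) of each of the 17771 genes tested, plotted against its mean level over the 6 libraries in log2 CPM; red points are the 197 genes called up and blue points the 183 called down. Called genes sit outside the band of the other genes at middle and high levels, and the rises reach further from 0 than the falls.

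The number of calls depended on the batches and on how the spread between libraries was estimated. Without batch 1 the fit called 597 genes up and 840 down, and without batch 2 it called 75 and 25. With edgeR's own stricter filter on low counts, which left 13731 genes, 68 rose and 45 fell. Without the batch block no gene passed. At an unadjusted p under 0.05, 397 genes lay above 0 and 316 below 0, together fewer than a share of 0.05 of the 17771 genes tested. All 380 called genes kept their direction in every one of these fits. A core of 42 rises and 26 falls was called by each of 5 other fits that kept all batches and the block (the stricter filter, another scaling, DESeq2, limma-voom, and a fit that also held the cGAS KO libraries). Genes of this core are named as such below.

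**Figure D2:**
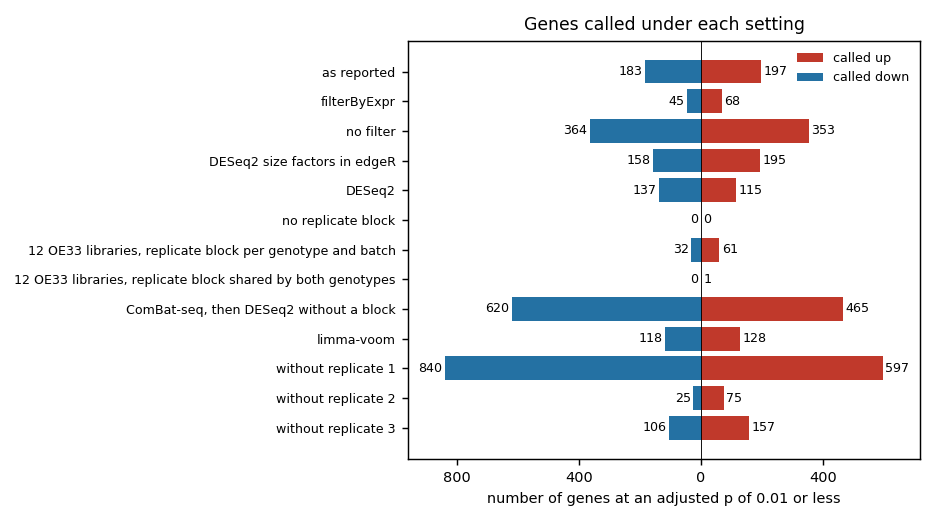
Number of genes called up (red, to the right) and down (blue, to the left) at an adjusted p of 0.01 or less under each setting; "replicate" is the batch number. The counts run from none without a batch block to 597 up and 840 down without batch 1.

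The most strongly up-regulated gene at an appreciable level was CYP1A1 (chr15:74719542-74725610, GRCh38), a cytochrome P450 that oxidizes aromatic compounds and the classic target of the aryl hydrocarbon receptor. Its level was 7.64, 3.05 and 6.32 CPM with DMSO and 30.3, 16.0 and 48.7 CPM with MPS1i in batches 1, 2 and 3. Every MPS1i library lay above every DMSO library, and the log2 fold change of 2.44 ± 0.14 (SE, 3 pairs), or 5.44-fold, had the smallest adjusted p of all genes (2.02e-12). CYP1B1, a second P450 enzyme under the same receptor, went from 2.38, 2.70 and 1.62 CPM to 7.39, 5.66 and 7.11 CPM, also without overlap (1.59 ± 0.20, adjusted p = 1.06e-05). Both belonged to the core. They were the 2 genes that rose among 7 measured targets of this receptor, none of which fell; the median log2 fold change of these targets was 0.81, beside 0.00021 over all genes tested. Among 24 measured genes for other xenobiotic enzymes and ABC transporters, the glutathione transferase GSTM3 was the only one to pass, and the median was 0.13.

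The word GCGTG is the core of the sequence that the aryl hydrocarbon receptor is known to bind. To show where it lies in the gene that responded most, the 150 bases before the RefSeq start of CYP1A1 are printed 5′ to 3′ (chr15:74725529-74725678, minus strand, GRCh38.p14), with the word in capitals.
CYP1A1: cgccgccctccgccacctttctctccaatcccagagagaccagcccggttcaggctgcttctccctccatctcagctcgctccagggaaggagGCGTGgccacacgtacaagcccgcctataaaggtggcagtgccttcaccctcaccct
The single match on either strand begins 57 bases before the start. Bases further upstream were not searched, and whether CYP1A1 responded through this match was not tested. The same word occurred in 32.6% of the 11819 promoters of genes tested (23.4% of all 27305 RefSeq promoters of this length), in 27.1% of the 140 up-regulated genes with a promoter in the table and in 39.6% of the 149 down-regulated ones.

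Genes controlled by NRF2, the factor that switches on antioxidant enzymes, included 5 rises and no fall among 25 measured members (median 0.16). AKR1C1, an aldo-keto reductase, went from 2.63, 5.09 and 1.47 CPM to 4.45, 26.2 and 5.88 CPM, so that the groups overlapped across batches while each batch moved up (1.80 ± 0.21, adjusted p = 3.51e-06). Its neighbors on chromosome 10, AKR1C3 (1.18 ± 0.16) and AKR1C2 (1.48 ± 0.26), rose as well; the 3 genes are close copies whose reads may be shared, and the way multimapping reads were counted is not given in the sources used here. HMOX1, the enzyme that degrades heme, belonged to the core, at 10.3, 10.1 and 8.29 CPM with DMSO and 14.7, 29.0 and 16.8 CPM with MPS1i (1.02 ± 0.14, adjusted p = 3.58e-05). The ferritin heavy chain gene FTH1 completed the 5.

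Genes of the ATF4 stress response showed 5 rises and no fall among 31 (median 0.18). This list covers genes that answer to amino acid shortage and other triggers of the integrated stress response. NUPR1, a small stress-induced chromatin protein, was almost absent with DMSO (0.456, 0.0499 and 0.808 CPM) and reached 1.64, 1.87 and 2.73 CPM with MPS1i (2.29 ± 0.40, adjusted p = 0.000528). ATF3 rose by 0.80 ± 0.14, CHAC1 by 0.71 ± 0.15, PPP1R15A by 0.43 ± 0.08 and ATF4 itself by 0.35 ± 0.08. NUPR1 and ATF3 were each called by 2 of the 5 other fits. None of the 25 measured endoplasmic reticulum chaperones passed in either direction (median -0.01), and of 22 heat shock genes only ZFAND2A rose (0.63 ± 0.13).

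Genes that p53 is known to activate had a median of 0.01, and 3 of 27 rose. GDF15, a secreted stress cytokine, went from 161, 125 and 439 CPM to 211, 273 and 689 CPM (0.72 ± 0.10, adjusted p = 3.37e-05). TP53INP1, which promotes autophagy and cell death, rose without overlap from 2.23, 1.10 and 2.17 CPM to 3.40, 4.41 and 6.31 CPM (1.34 ± 0.23). CDKN1A, the CDK inhibitor p21, rose by 0.45 ± 0.10 and was called by 1 of the 5 other fits. The apoptosis regulators held 2 rises among 29: BMF, a BH3-only activator of cell death (1.19 ± 0.18, core), and BIRC3, an inhibitor of apoptosis (0.64 ± 0.10). Autophagy and lysosome genes showed a few rises, with GABARAPL1 (autophagosome formation; 0.98 ± 0.12, core), the autophagy receptor OPTN (0.55 ± 0.09, core) and the protease gene CTSS (0.79 ± 0.09, core) as the clearest; ATG16L1 fell by 0.48 on the log2 scale. Of 15 measured targets of FOXO factors and glucocorticoids, 4 rose, led by the muscle atrophy ubiquitin ligase FBXO32 (16.6, 6.84 and 11.6 CPM to 24.9, 23.3 and 26.6 CPM, no overlap; 1.14 ± 0.14, core) and PIK3IP1, an inhibitor of PI3-kinase (1.03 ± 0.16, core).

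Cell division genes moved the other way. Of 51 measured genes of G2/M and mitosis, 16 fell and none rose; 7 fell with edgeR's stricter filter, 0 without batch 2 and 37 without batch 1. Their log2 fold changes had a median of -0.32, which was -0.10 in batch 1, -0.39 in batch 2 and -0.49 in batch 3. CDC20, the activator of the anaphase-promoting complex, is counted not in this list but with the spindle checkpoint genes below. It had 153, 183 and 166 CPM with DMSO and 110, 116 and 116 CPM with MPS1i. All MPS1i libraries were below all DMSO libraries (-0.55 ± 0.08, adjusted p = 6.86e-05). PLK1, the kinase that drives mitotic entry and spindle assembly, went from 268, 337 and 301 CPM to 196, 211 and 215 CPM, again without overlap (-0.54 ± 0.08, adjusted p = 0.000106). Both were in the core. GTSE1, CCNA2 (cyclin A2), AURKA and the mitotic kinesin KIF20A belonged to it as well, with log2 fold changes of -0.55, -0.44, -0.46 and -0.50, whereas CCNB1 (cyclin B1, -0.39 ± 0.08) and CCNF (-0.58 ± 0.10) were called by 3 of the 5 other fits.

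The targeted kinase itself was not among the genes that fell: TTK had 39.8, 41.9 and 40.3 CPM with DMSO and 40.9, 35.7 and 35.4 CPM with MPS1i (-0.12 ± 0.09, adjusted p = 0.53). The compound acts on the protein, so this level is no check of the treatment. AURKB, the chromosomal passenger kinase, fell without overlap from 49.97, 50.8 and 47.5 CPM to 38.0, 32.7 and 36.7 CPM (-0.47 ± 0.09, adjusted p = 0.00162). It was 1 of 5 falls among 26 spindle checkpoint and kinetochore genes, with CDC20, the checkpoint protein BUB1B, NUF2 and INCENP (median -0.25, no rise).

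DNA replication genes held 4 falls and no rise among 47 (median -0.21): the ligase LIG1, the helicase subunit MCM7, the nuclease FEN1 and UHRF1, which maintains DNA methylation. MCM7 was abundant, at 1070, 1292 and 1081 CPM with DMSO and 858, 993 and 807 CPM with MPS1i (-0.37 ± 0.08, adjusted p = 0.00498). FEN1 was called by none of the 5 other fits. Condensin subunits NCAPD2, NCAPH and NCAPG fell among 18 cohesin and condensin genes, and were called by 3, 1 and 0 of the 5 other fits. The histone gene H2AFX, whose product marks DNA breaks when phosphorylated, fell from 208, 219 and 221 CPM to 150, 151 and 143 CPM without overlap (-0.55 ± 0.08, core). It was the only call among 29 DNA repair genes. The CIN70 signature, a published set of genes whose expression tracks chromosomal instability across tumors and that is rich in proliferation genes, held 12 falls and no rise among 70 (median -0.20). The CINmn signature, which the study derived in other cells, held 1 rise and 1 fall among 55 (median -0.03).

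TTTGAA is the cell cycle homology region, a word through which late cell cycle genes are known to be repressed outside G2 and M. The 150 bases before the starts of CDC20 (chr1:43358831-43358980, plus strand) and PLK1 (chr16:23678739-23678888, plus strand) are printed 5′ to 3′ from the same RefSeq table, as the 2 most significant falls of the mitotic lists, with the word in capitals.
CDC20: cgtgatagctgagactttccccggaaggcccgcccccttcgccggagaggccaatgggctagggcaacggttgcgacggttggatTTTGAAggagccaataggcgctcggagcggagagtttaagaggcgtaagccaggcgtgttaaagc
PLK1: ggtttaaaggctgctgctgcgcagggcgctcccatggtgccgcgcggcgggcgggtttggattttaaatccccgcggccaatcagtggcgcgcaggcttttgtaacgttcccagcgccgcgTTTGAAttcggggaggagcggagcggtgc
Each window holds 1 match on either strand, beginning 65 bases before the start of CDC20 and 29 bases before that of PLK1. The word occurred in 4.07% of the promoters of genes tested (7.44% of all promoters of this length). In the G2/M and mitosis list, which does not hold CDC20, it occurred in 8 of 14 genes that fell and had a RefSeq promoter (57.1%). Of the genes of this list that were not called, it occurred in 11 of 31 (35.5%). Among all down-regulated genes it occurred in 12.8% of 149, and among the up-regulated in 9.29% of 140. These shares are descriptions and were not tested.

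**Figure D3:**
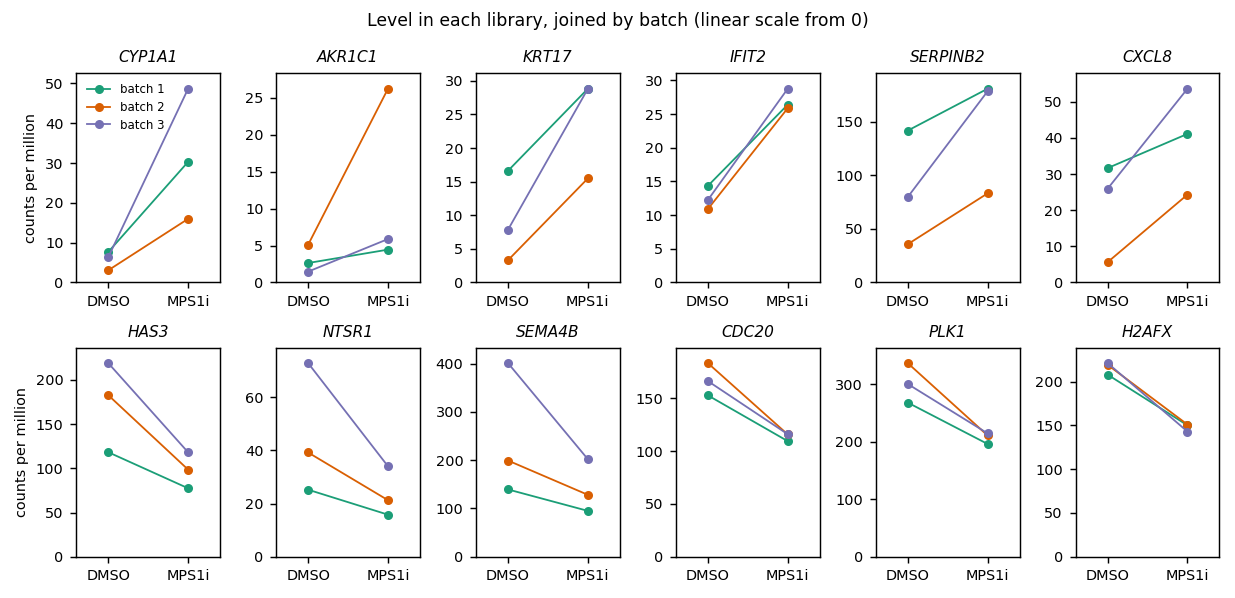
Level of 12 called genes in CPM (linear axes from 0) in each DMSO and MPS1i library, with the libraries of a batch joined by a line. Each line rises in the upper row and falls in the lower row, and the 3 lines of CDC20, PLK1 and H2AFX lie closer together than those of SERPINB2, CXCL8 or SEMA4B, whose starting levels differed between batches.

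Keratins, the intermediate filament proteins of epithelia, included 5 rises and 1 fall among 28 measured genes (median 0.42). Their summed mRNA, which is mostly that of abundant simple-epithelial keratins, was lower without overlap, at 20893 to 21767 CPM with DMSO and 18044 to 19359 CPM with MPS1i. KRT17, a keratin of basal and wounded epithelium, went from 16.6, 3.30 and 7.83 CPM to 28.8, 15.5 and 28.8 CPM, with the groups overlapping between batches (1.53 ± 0.16, adjusted p = 1.37e-06, core). KRT16, another keratin of wounded epithelium, rose by 1.01 ± 0.15 and the hair keratin KRT34 by 0.95 ± 0.16, while KRT15, a keratin of basal progenitors, was lowered (-0.41 ± 0.08). Reads of these type I keratins, which lie side by side on chromosome 17, may be partly shared. Of 20 measured squamous genes only LCN2 passed (0.52 ± 0.08), and of 22 columnar and intestinal genes only AGR2 (0.41 ± 0.09). AGR2 was called by 1 of the 5 other fits. Other large rises were the cytoskeletal regulator NEDD9 (1.10 ± 0.14, core), the homeodomain protein HOPX (1.14 ± 0.19, core), the chloride channel gene CLIC3 (1.39 ± 0.26) and ANKRD1, a target of YAP (1.21 ± 0.16). Among 19 YAP targets, ANKRD1, CTGF and CYR61 rose whereas the receptor kinase AXL (-0.58 ± 0.09) and FJX1 fell. IKZF3 (1.27 ± 0.28) and LINC01569 (1.28 ± 0.29) were near 1 CPM and were called by 1 of the 5 other fits.

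The 15 largest falls among genes at 1 CPM or more that fell in every batch held genes for several receptors and other surface proteins. HAS3, a hyaluronan synthase at chr16:69105564-69118719, went from 118, 183 and 219 CPM to 77.4, 98.5 and 118 CPM and had the smallest adjusted p of the down-regulated genes (-0.80 ± 0.08, 1.74-fold, adjusted p = 8.48e-07, core). The neurotensin receptor gene NTSR1 was at 25.2, 39.2 and 72.8 CPM with DMSO and 15.8, 21.3 and 34.0 CPM with MPS1i (-0.90 ± 0.10, core). The bombesin receptor gene GRPR was low throughout, at 5.87, 5.34 and 5.91 CPM against 3.11, 3.23 and 3.42 CPM (-0.81 ± 0.18). GRPR was called by 1 of the 5 other fits. SEMA4B, a semaphorin, went from 247 ± 137 CPM to 142 ± 54.8 CPM (mean ± SD, 3 libraries each; -0.73 ± 0.09, core). For NTSR1 and SEMA4B each batch fell, but the batches differed so much in level that the groups overlapped. EPHB6, an Eph receptor (-1.17 ± 0.18, core), NECTIN1, an adhesion molecule (-0.66 ± 0.11), and TMEM158 (-0.71 ± 0.12) also fell. The Notch genes LFNG (-0.64 ± 0.10, core), a modifier of Notch receptors, and JAG1 (-0.52 ± 0.08), a ligand, were the 2 calls among 13 measured genes of that pathway. The transcription factors FOXC2 (-0.66 ± 0.10, core) and SOX21 (-0.70 ± 0.12), the spindle protein PSRC1 (-0.74 ± 0.13, core) and the noncoding APCDD1L-DT (-0.97 ± 0.11) were also in this group. The value of the pseudogene IKBKGP1 (-2.01 ± 0.45) rested on the DMSO library of batch 2, at 10.1 CPM, with the 5 other libraries at 0.428 to 0.746 CPM.

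Few metabolic genes were called. CA9, the carbonic anhydrase induced by hypoxia, fell from 3.85, 8.29 and 13.1 CPM to 2.14, 3.98 and 4.87 CPM (-1.15 ± 0.17, 2.22-fold, core), and NDRG1 fell by 0.34 on the log2 scale; the other 17 of 19 measured hypoxia targets were not called (median -0.16). MIR210HG, the host of a hypoxia-induced microRNA, fell by 0.69 and was called by 1 of the 5 other fits. Among 18 glycolysis genes the lactate exporter SLC16A3 was the only call (496, 599 and 1030 CPM to 344, 429 and 696 CPM; -0.53 ± 0.08, core), with a median of -0.22. Of 25 cholesterol synthesis genes INSIG1 alone rose, and no gene of fatty acid synthesis (14) or of fatty acid oxidation (21) passed. Solute carriers showed 1 rise and 5 falls among 218, and none of 358 ZNF genes passed.

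Of 14 hosts of small nucleolar RNAs, 5 rose and none fell (median 0.25), including ZFAS1 (19.5, 12.2 and 21.2 CPM to 32.9, 25.2 and 44.5 CPM, no overlap; 0.95 ± 0.10, core) and GAS5 (0.44 ± 0.09). The ribosomal protein gene RPL26 rose without overlap from 14.6, 10.7 and 10.5 CPM to 30.8, 18.4 and 18.0 CPM (0.89 ± 0.11, core), whereas the 85 measured cytosolic ribosomal protein genes had 2 rises, 1 fall and a median of 0.08. Ribosome biogenesis factors had 2 falls, RRS1 and BOP1, among 35 (median -0.20). On the mitochondrial genome 6 of 31 genes rose and none fell: MT-ND3 (282, 172 and 790 CPM to 429, 256 and 1204 CPM; 0.60 ± 0.08, core), MT-ATP8, both rRNAs and the tRNA genes MT-TP and MT-TC. The mitochondrial share of the libraries moved with these calls, as given above, and its part in them was not tested; none of 80 nuclear genes for respiratory chain subunits passed.

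The lists of interferon response genes, chemokines, other cytokines and NF-kappaB regulators held rises and no fall. IFIT2, an interferon-induced protein that binds RNA (chr10:89283694-89309276), went from 14.3, 10.9 and 12.2 CPM to 26.4, 25.9 and 28.8 CPM, with every MPS1i library above every DMSO library (1.12 ± 0.11, adjusted p = 5.72e-07, core). Of 95 measured genes of the Hallmark interferon-alpha response, 9 rose (median 0.11), among them SAMD9L (0.80 ± 0.11, core), GBP4 (1.03 ± 0.15, core), the factor IRF1 (0.45 ± 0.09) and IFIT3 (0.43 ± 0.10). The list's median was 0.02 in batch 1, 0.18 in batch 2 and 0.21 in batch 3. STING1 (TMEM173 in the table) was low, at 2.99, 3.50 and 5.25 CPM against 4.32, 4.23 and 9.04 CPM, and did not pass (0.55 ± 0.18, adjusted p = 0.0623). No gene of MHC class I presentation passed among 18, and the only call among 17 cGAS-STING pathway genes was a fall of SLC19A1, a folate carrier that also imports cyclic dinucleotides (-0.39 ± 0.08).

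Among ligands of the neutrophil receptors CXCR1 and CXCR2, CXCL8 and CXCL2 rose out of 6 measured (median 0.53). CXCL8, interleukin-8, had 31.6, 5.59 and 25.9 CPM with DMSO and 41.1, 24.3 and 53.6 CPM with MPS1i (1.07 ± 0.16, adjusted p = 0.000113). The list's median was 0.03 in batch 1 and 1.14 and 0.82 in batches 2 and 3. IL1A, a cytokine released by stressed epithelium, and IL1RN, the antagonist of its receptor, rose among 31 other cytokines (0.66 ± 0.11 and 1.14 ± 0.20). Of 26 NF-kappaB regulators and targets, ICAM1, BIRC3 and CYLD rose (median 0.14), and CYLD was called by 1 of the 5 other fits. ICAM1, an adhesion molecule, went from 36.4, 7.79 and 36.0 CPM to 51.5, 18.8 and 66.3 CPM (0.84 ± 0.11, core).
GGAANTNCC is a word bound by NF-kappaB dimers, and it is shown for CXCL8, the chemokine gene with the smallest p; the 150 bases before its start (chr4:73740419-73740568, plus strand) are printed as above.
CXCL8: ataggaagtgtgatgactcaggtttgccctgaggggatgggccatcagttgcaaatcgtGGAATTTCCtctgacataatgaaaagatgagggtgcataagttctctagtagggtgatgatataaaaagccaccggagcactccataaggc
The match, which reads on both strands, begins 91 bases before the start. The word occurred in 3.56% of the promoters of genes tested (2.93% of all promoters of this length) and in 4 of the 140 up-regulated genes with a promoter in the table (2.86%).

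**Figure D4:**
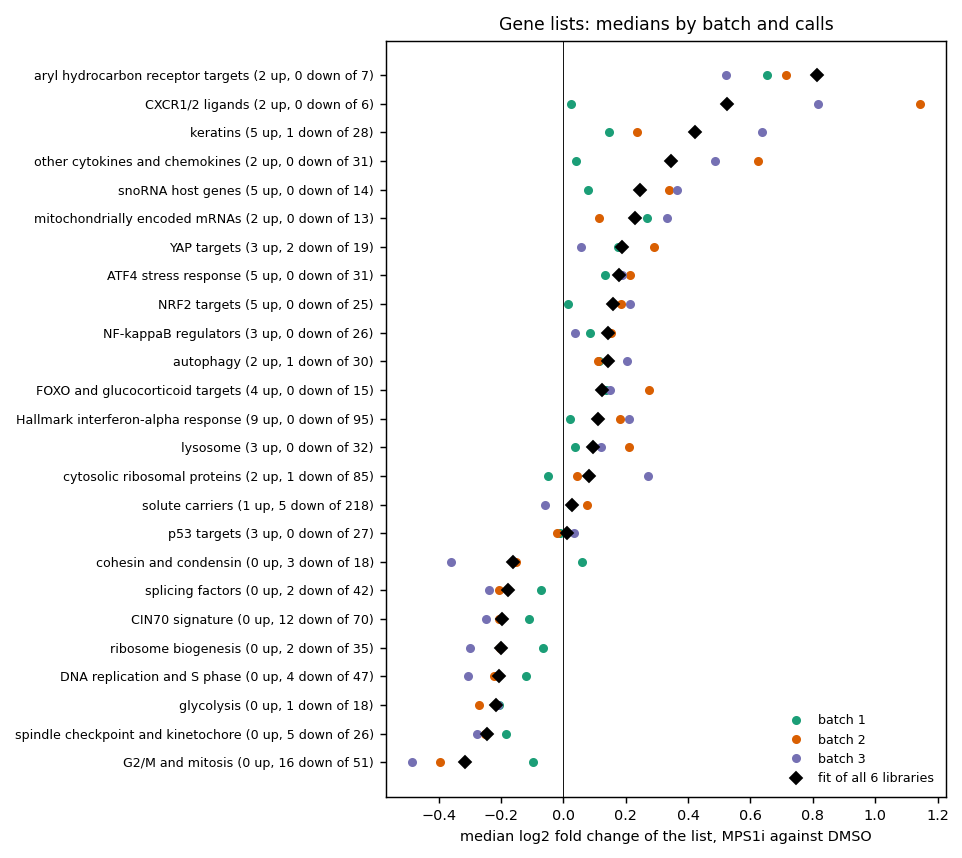
Median log2 fold change of 25 gene lists in the fit of all 6 libraries (black diamonds) and in each batch (colored points), with the number of members called up and down of those tested beside each name. Cell division lists lie left of 0 and aryl hydrocarbon receptor targets, chemokines and keratins furthest right; for 19 lists batch 1 lies nearest 0.

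By class, called genes were mostly protein coding (180 of 197 rises and 179 of 183 falls, out of 13370 protein-coding genes tested). Of the 3555 genes with the lowest mean levels none was called, and 110 of the 183 falls were among the 3554 with the highest. Of 43 bZIP transcription factors 4 rose (ATF3, ATF4, FOSB and BACH2) and none fell, and of 28 forkhead factors 3 fell (FOXC2, FOXD1 and FOXQ1) and none rose. The median GC content of the longest transcript was 57.0% for protein-coding genes that fell, 46.6% for those that rose and 48.3% for those not called. The 3532 genes with the highest GC content held 24 rises and 81 falls, and the 3532 with the lowest 47 rises and 12 falls; the part of base composition in the calls was not tested.

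The response was then set beside that of OE33 cells without cGAS. CGAS mRNA in the cGAS KO libraries was 2.31 to 2.82 CPM, except in the DMSO library labelled replicate 2, which had 15.6 CPM. That level lies between those of the other cGAS KO libraries and of the Cas9 libraries. What this library held was not tested, and values without the cGAS KO pair of batch 2 are given beside most of those with it. In a fit of both genotypes, 70 genes rose (0.343%) and 31 fell (0.152%) in the cGAS KO cells, beside 61 (0.299%) and 32 (0.157%) in the Cas9 cells in the same fit. Without the pair, 103 of 20426 genes rose and 42 fell in the cGAS KO cells, and 354 and 352 in the Cas9 cells. The cGAS KO cells then had fewer pairs than the Cas9 cells, so these counts do not compare the genotypes. Of the 197 genes that rose in Cas9 cells, 185 had a log2 fold change above 0 in cGAS KO cells (188 without the pair). Of the 183 that fell, 173 lay below 0 (180 without the pair). Of all 17771 genes, 8952 lay above 0 (8417 without the pair). The medians of these rises and falls in cGAS KO cells were 0.41 and -0.30 (0.38 and -0.29 without the pair). Of the genes named above, HMOX1 had a log2 fold change of 0.97 in cGAS KO cells (0.58 without the pair), CDC20 had -0.51 (-0.44), PLK1 -0.53 (-0.35) and HAS3 -0.87 (-0.64). CYP1A1 had 1.49 (1.79). AKR1C1 had 1.78 with the pair but 0.33 without it. Other values were smaller than in Cas9 cells, with 0.45 for IFIT2 (0.54 without the pair), 0.13 for IL1RN (0.26) and 0.12 for BIRC3 (0.15). The interferon-alpha response genes had a smaller median as well, at -0.05 (-0.01). IFIT2, IL1RN and BIRC3 did not pass the test of the difference described next, with the pair (adjusted p = 0.61, 0.77 and 0.79). That fit called 61 rises and 32 falls in Cas9 cells, against 197 and 183 in the fit of 6 libraries. A difference that did not pass therefore does not show that the genotypes responded alike. CXCL8 had 0.70 in cGAS KO cells (0.57 without the pair) and ICAM1 0.66 (0.73), against 1.07 and 0.84 in Cas9 cells. CXCL2 had 0.85 with the pair, against 0.90 in Cas9 cells. PTGS2, cyclooxygenase-2, had -0.98 with the pair and 0.50 without it, against 0.96 in Cas9 cells. No control libraries were shared between the genotypes.

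The difference between the genotypes was tested gene by gene, and 2 of 20426 genes passed at an adjusted p of 0.05 or less (0.00979%), with 720 at an unadjusted p under 0.05. SERPINB2, the plasminogen activator inhibitor PAI-2, had 142, 35.9 and 81.0 CPM with DMSO and 182, 83.6 and 179 CPM with MPS1i in Cas9 cells, and 237, 156 and 175 CPM and 237, 62.6 and 198 CPM in cGAS KO cells. Its response was larger in Cas9 cells by 1.26 ± 0.22 on the log2 scale (adjusted p = 0.0193), in each of 3 batches, and most in batch 2. SPCS2P4, a pseudogene whose reads may be shared with SPCS2, went the other way (-1.69 ± 0.30, adjusted p = 0.0193). FBXO32 (1.27 ± 0.25, adjusted p = 0.0838) and KRT17 (1.32 ± 0.28, adjusted p = 0.105) came next and did not pass, nor did AC244153.1 (2.08 ± 0.45), whose value rested on the cGAS KO DMSO library of batch 2 (11.96 CPM, against 0.624 to 1.43 CPM in the other cGAS KO libraries). Without the cGAS KO pair of batch 2, 17 genes passed, FBXO32 and KRT17 among them (adjusted p = 0.000899 for each), and SERPINB2 still passed with 0.83 ± 0.14. Neither SERPINB2 nor SPCS2P4 passed with DESeq2, with edgeR's stricter filter, or with a block shared by both genotypes, which each gave 0 genes (262, 460 and 383 at an unadjusted p under 0.05).

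**Figure D5:**
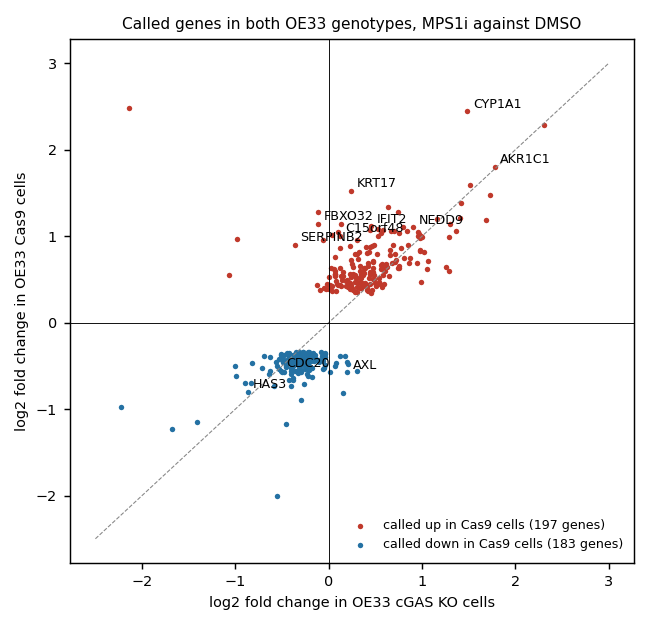
Log2 fold change (MPS1i against DMSO) of the 380 called genes in OE33 Cas9 cells (vertical axis) against OE33 cGAS KO cells (horizontal axis); the dashed line marks equal values. The genes lie mostly in the quadrants of equal sign, and SERPINB2 and FBXO32 lie left of 0 on the horizontal axis while up-regulated in Cas9 cells.

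Against SK-GT-4 Cas9 cells, 0 of 22555 genes differed in their response at an adjusted p of 0.05 or less with edgeR (0%), with 666 at an unadjusted p under 0.05 and 1 gene passing with DESeq2. That gene was IL1RL1, the interleukin-33 receptor, which had 142, 150 and 151 CPM with DMSO and 104, 115 and 99.5 CPM with MPS1i in OE33 Cas9 cells but 13.7, 7.75 and 18.6 CPM and 28.3, 19.1 and 26.0 CPM in SK-GT-4 Cas9 cells. Its difference was -1.41 ± 0.24 with edgeR (adjusted p = 0.958). In this edgeR fit the response of OE33 Cas9 cells alone did not pass for NEDD9 (adjusted p = 0.53, against 1.46e-05 in the fit of 6 libraries). The lack of passing genes therefore does not show that the 2 lines responded alike. Without batch 2, 77 genes passed, which included IL1RL1, the cytokine gene IL32 (-1.43 ± 0.19), the factor KLF2 (-1.12 ± 0.20), NEBL (1.11 ± 0.27) and NEDD9 (1.12 ± 0.23). Of the genes called in OE33 Cas9 cells, 147 of 197 rises were above 0 and 147 of 183 falls below 0 in SK-GT-4 Cas9 cells, with medians of 0.36 and -0.25, where 8532 of all 17771 genes lay above 0.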

How the data were processed

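Libraries of 8 groups, 3 each, were used. Per the labels, the authors used HISAT2 2.0.5, featureCounts 1.5.0 and GRCh38; the deposited values are raw counts of 58735 genes, not normalized. Annotation release, strand setting and multimapping treatment are not given in the sources used here. Gene coordinates are the table's.

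Kept were 17771 genes whose counts summed to 5 or more over the 6 libraries and were above 0 in 4 or more. They were fitted with edgeR 4.0.16 (R 4.3.3; TMM scaling, quasi-likelihood test, batch as a block) and called at a Benjamini-Hochberg adjusted p of 0.01 or less. CPM use TMM-scaled library sizes, except in the sums of cell type markers, which use total counts. Difference tests used 12 libraries each, a block per line or genotype and batch, and 0.05. Alternatives used DESeq2 1.42.0, limma 3.58.1 and sva 3.50.0. The script was tested on simulated data.

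The labels state the batch, and libraries of the same batch deviated from their group means together (correlations 0.22, 0.42 and 0.47), so batch paired the libraries. Correlations between batches were all negative, which subtracting the group means favors, so they add no support.

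The libraries and gene lists were chosen with earlier results of these data known. Named were the 15 largest rises and 15 largest falls among called genes with 1 direction in all batches and a mean of 1 CPM or more (clone-named genes left out), up to 3 called members of each list by p, CGAS, STING1, TTK and AURKB, and the 5 smallest p of each difference test with 1 direction in all batches and a mean of 1 CPM or more; others complete a count or were chosen after their values were seen. Promoters are RefSeq's, 1 per gene by symbol (11819 of the tested genes).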

Additional observations from a re-analysis of the deposited data

Results flagged for a closer look

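The response to MPS1i differed between OE33 Cas9 and OE33 cGAS KO cells for 2 genes by the test of the difference itself. SERPINB2 responded more in Cas9 cells by 1.26 on the log2 scale, with a difference in the same direction in 3 of 3 batches (0.36, 2.53 and 0.96). SPCS2P4 responded less, by -1.69 (batches -1.93, -0.39 and -2.69), and its own change in Cas9 cells did not pass (-0.72 ± 0.17, adjusted p = 0.011).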

How the results depend on the processing

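Counts of calls moved under most settings, while the direction of each of the 380 called genes did not. Besides the values already given, the rises and falls numbered 353 and 364 with no filter, 195 and 158 with DESeq2 size factors, 115 and 137 with DESeq2, 128 and 118 with limma-voom, 61 and 32 with 12 OE33 libraries and a block per genotype and batch, 1 and 0 with a block shared by both genotypes (720 and 700 at an unadjusted p under 0.05), 465 and 620 with ComBat-seq followed by DESeq2 without a block, 0 and 0 without the replicate block, 68 and 45 with edgeR's filter, 444 and 557 at an adjusted p of 0.05, and 36 and 4 when 2-fold was also asked. Of the called genes, 113 rises and 125 falls were shared with DESeq2. Counts of called members moved by more than 1.5 times for 22 of 25 lists with edgeR's filter and for all 25 without batch 2. Leaving out a batch gave 75 to 597 rises and 25 to 840 falls. The difference from cGAS KO cells went from 2 genes to 0 with a shared block, edgeR's filter and DESeq2, and from 0 to 17 on leaving out libraries; the difference from SK-GT-4 cells went from 0 to 1 with DESeq2, 0 without the replicate block, and 0 to 77 on leaving out libraries. The causes were not tested. Without the cGAS KO pair of batch 2, an alternative chosen after seeing the data, PTGS2 in cGAS KO cells had 0.4977. CGAS, not called, had -0.0495 to 0.1124 on leaving out a batch.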

Other observations

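Further families were looked up after the results had been seen and are given as values, with no test of the family. All 9 measured genes of the nuclear lamina and its partners lay below 0, and 4 fell: LMNB1 (-0.57 ± 0.09), LMNB2 (-0.42 ± 0.09), the lamin B receptor LBR (-0.42 ± 0.08) and LMNA (-0.39 ± 0.08). The caveolar coat genes CAV1 (-0.36 ± 0.08), CAVIN1 (-0.39 ± 0.08) and CAVIN3 (-0.52 ± 0.09) fell, out of 6 measured. Of 7 CDK inhibitor genes 3 rose: CDKN2B (0.68 ± 0.10), CDKN1A (0.45 ± 0.10) and CDKN1B (0.41 ± 0.09), while CDKN2A had -0.05 ± 0.09.

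Of 6 guanylate-binding protein genes, all above 0, GBP4 (1.03 ± 0.15), GBP2 (0.99 ± 0.16) and GBP1 (0.65 ± 0.12) rose. Of 6 genes of prostaglandin metabolism, PTGS2, cyclooxygenase-2 (0.96 ± 0.13), and PTGES (0.39 ± 0.08) rose. YPEL3 (0.88 ± 0.14) and YPEL5 (0.65 ± 0.09) rose out of 4 measured YPEL genes. The pseudogene NSFP1 had the largest fitted rise of all called genes (2.49 ± 0.51) at a low level, with 3.54 CPM in the MPS1i library of batch 2 and 0.101 to 0.588 CPM in the other 5 libraries.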
